A study of Homo sapiens with 11 samples.

Results

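The regions described here lie on the parts of the human genome assembly that are hardest to place: sequences with no position on a chromosome, and the short arms of the acrocentric chromosomes 13, 14, 15, 21 and 22. A region of a deposited peak list was taken when its sequence was an unplaced, unlocalised or alternate contig. It was also taken when it ended below 17.7 Mb on chromosome 13, 17.2 Mb on chromosome 14, 19.0 Mb on chromosome 15, 10.9 Mb on chromosome 21 or 13.7 Mb on chromosome 22. These windows run into the centromere, and short-arm and centromere sequence were not told apart within them. Regions inside them are called short-arm regions below. Mitochondrial regions were left out. Of 5400 nuclear regions in 5 lists, 851 met the rule. No measured value entered it.

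The lists come from CUT&RUN. There, a nuclease tethered to an antibody cuts out the DNA beside the protein the antibody binds, and the freed fragments are sequenced. All 11 libraries were made from HEK293T, an embryonic kidney cell line of human origin expressing the large T antigen of SV40. The groups were edit_myc_FLAG, myc_FLAG and endog_myc, with 3 libraries each and 1 peak list per group, and mouse IgG and rabbit IgG, with 1 library and 1 list each. FLAG was bound with a mouse antibody and myc with a rabbit antibody, per the labels' protocols. The labels do not say what "edit" stands for, how the tagged cells were made, or whether the libraries came from separate cultures. With 1 list per group there is no replicate check, so no test between groups was made, and every interval covers counting error only.

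MYC is a transcription factor that pairs with MAX on DNA and is known to act on genes for growth, among them the genes for ribosomal RNA. Those genes stand in long arrays on the acrocentric short arms, each unit giving 1 precursor, the 45S RNA, that is cut into the 18S, 5.8S and 28S RNAs. Contigs and acrocentric arms also hold satellite repeats and segmental duplications, which occur in many near-identical copies. A short read from such a sequence can match several places. How the authors placed reads with several matches was not given in the sources used here, so the copy a region came from is uncertain for every region below.

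The genome sequence under the contigs was not used here. The sequences that could be shown belong to small RNAs inside the ribosomal precursor and to a piece of that precursor lying apart from the arrays. They are shown because a region in all 5 lists lies on that piece. They are from RefSeq on GRCh38.p14, on the plus strand of chromosome 21, written 5′ to 3′. Capitals in the hairpins mark the 48 bases that both share in 1 run, and in hsa-miR-3648 the seed, bases 2 to 8.
MIR10396A hairpin, chr21:8987617-8987665, apart from the arrays: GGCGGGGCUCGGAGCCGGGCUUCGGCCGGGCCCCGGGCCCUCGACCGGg
MIR10396B hairpin, chr21:8436324-8436374, inside the unit RNA45SN1: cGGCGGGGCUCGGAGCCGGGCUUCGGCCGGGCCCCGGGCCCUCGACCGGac
hsa-miR-3648 of MIR3648-2, chr21:8987026-8987046, apart from the arrays: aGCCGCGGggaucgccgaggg

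Contigs and acrocentric arms made up a larger share of the short IgG lists than of the long target lists. They held 248 of 2165 nuclear regions in edit_myc_FLAG (11.5%, 95% Wilson interval 10.2 to 12.9), 223 of the 1283 myc_FLAG regions (17.4%, 15.4 to 19.6) and 230 of the 1352 endog_myc regions (17.0%, 15.1 to 19.1). In mouse IgG they held 73 of 298 (24.5%, 19.96 to 29.7) and in rabbit IgG 77 of 302 (25.5%, 20.9 to 30.7). The number of regions was therefore close in the 3 target lists, while the lists themselves differed in length. When each list was limited to its 298 regions with the highest fold enrichment, edit_myc_FLAG and endog_myc each had a share of 23.5% and myc_FLAG of 23.2%, beside 24.5% in mouse IgG and 25.8% in rabbit IgG. Among regions with a −log10 q of at least 5 the edit_myc_FLAG share was 18.3%. Read depth is unknown from peak lists, and it was not tested whether depth sets their length.

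**Figure D1:**
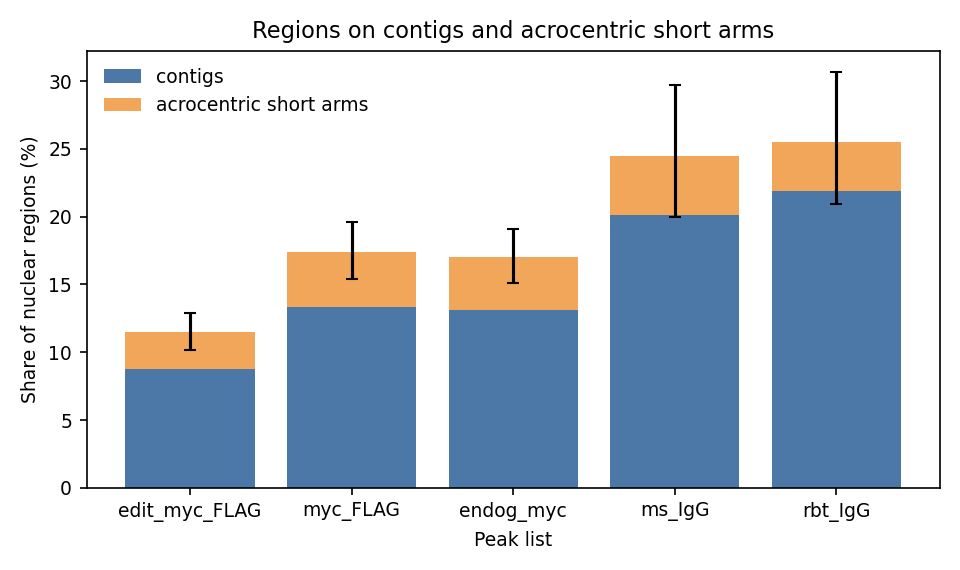
Share of nuclear regions (%) of each peak list that lay on contigs (blue) or acrocentric short arms (orange), with the 95% Wilson interval of the total. The share runs from 11.5% in edit_myc_FLAG to 25.5% in rabbit IgG, and contigs make up most of it in each list.

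Most of these regions were on contigs. In edit_myc_FLAG 190 were on contigs and 58 on short arms, in myc_FLAG 171 and 52, and in endog_myc 177 and 53. Mouse IgG had 60 and 13, and rabbit IgG 66 and 11. No region of any list lay on an alternate sequence, so the contigs were unplaced or unlocalised sequences. Regions fell on 67 contigs in all. Of these 27 had a region in all 5 lists, 48 had one in every target list, and 16 of those had none from IgG. No contig had regions in IgG alone.

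A sizeable part of the target-list regions here also appeared without a specific antibody. In edit_myc_FLAG 84 of 248 overlapped a region of either IgG list by at least 1 bp (33.9%, 28.3 to 39.97), where 15.9% of all nuclear regions of that list did. The same overlap was found for 88 of 223 myc_FLAG regions (39.5%, 33.3 to 46.0; all nuclear regions 27.5%). It was found for 89 of 230 endog_myc regions (38.7%, 32.6 to 45.1; all nuclear regions 26.1%). Outside contigs and acrocentric arms the shares were 13.6% (12.2 to 15.2), 25% (22.5 to 27.7) and 23.5% (21.1 to 26.1), below each of the intervals just given. Mouse IgG, the same species as the anti-FLAG antibody, overlapped 26.6% of the edit_myc_FLAG regions (11.9% of all nuclear regions) and 30.04% of those in myc_FLAG (20.7%). Rabbit IgG overlapped 31.7% of the endog_myc regions (20.6%). With lists of equal length the overlap with either IgG list was 75.7%, 76.8% and 77.1% in edit_myc_FLAG, myc_FLAG and endog_myc. The figure thus depends on how far down a list is read. Equal length keeps the regions of highest fold, and regions in IgG had the higher fold both here and elsewhere. No share over all nuclear regions was computed at that length. Whether the rise is particular to contigs and acrocentric arms was therefore not tested.

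**Figure D2:**
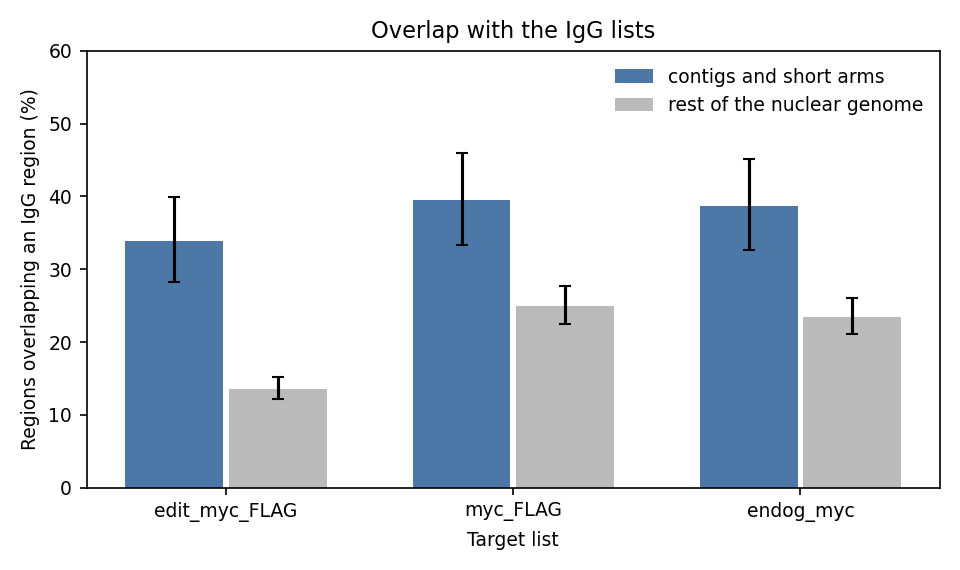
Share of regions (%) of each target list that overlapped a region of either IgG list by at least 1 bp, for contigs and acrocentric arms (blue) and for the rest of the nuclear genome (grey), with 95% Wilson intervals. The blue bars stand at 33.9%, 39.5% and 38.7%, and the grey bars at 13.6%, 25% and 23.5%.

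Read from the IgG side, nearly every region recurred. In mouse IgG 71 of 73 regions overlapped a target list (97.3%, 90.5 to 99.2; all nuclear regions 95%), and in rabbit IgG 76 of 77 did (98.7%, 93.0 to 99.8; all nuclear regions 98.0%). These shares were close to those of their whole lists. The IgG lists overlapped each other less: 51 of 73 mouse IgG regions had a rabbit IgG partner (69.9%, 58.6 to 79.2; all nuclear regions 63.8%), and 53 of 77 rabbit IgG regions had a mouse IgG partner (68.8%, 57.8 to 78.1; all nuclear regions 64.2%).

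Within a target list, regions that overlapped IgG had the higher fold. The fold is the authors' enrichment of a peak over its background and is compared within a list only. The median in edit_myc_FLAG was 9.06 for the 84 regions in IgG and 4.63 for the 164 others, in myc_FLAG 8.74 for 88 and 4.80 for 135, and in endog_myc 8.58 for 89 and 4.66 for 141. They were also wider, with medians of 487, 560 and 555 bp in the same order, against 262, 289 and 307 bp. The same held in the rest of the nuclear genome, where regions in IgG had median folds of 7.31, 6.85 and 6.80 against 5.22, 5.31 and 5.35, and median widths of 498, 511 and 527 bp against 230, 255 and 274 bp. Over all regions on contigs and acrocentric arms the median fold was 5.52 in edit_myc_FLAG, 5.76 in myc_FLAG and 5.47 in endog_myc, beside 5.38, 5.53 and 5.50 over all nuclear regions of those lists. In mouse IgG it was 6.83 beside 5.98, and in rabbit IgG 6.82 beside 6.08. The middle of the range thus differed little in the target lists, but the spread was wide: of the 100 highest-fold edit_myc_FLAG regions 26 were on contigs or acrocentric arms, and of the 100 lowest 34 were.

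The authors' significance value was high more often here than in the target lists at large. Of the edit_myc_FLAG regions, 195 of 248 had a −log10 q of 5 or more (78.6%, 73.1 to 83.3; all nuclear regions 49.3%). In myc_FLAG 178 of 223 did (79.8%, 74.1 to 84.6; all nuclear regions 68.3%) and in endog_myc 179 of 230 (77.8%, 72.0 to 82.7; all nuclear regions 67.7%). In mouse IgG 58 of 73 reached it (79.5%; all nuclear regions 79.9%) and in rabbit IgG 61 of 77 (79.2%; all nuclear regions 72.5%). The share was thus between 77.8% and 79.8% in all 5 lists.

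Between target lists, most regions recurred. Another target list held an overlapping region for 182 of 248 edit_myc_FLAG regions (73.4%, 67.6 to 78.5; all nuclear regions 46.7%), 189 of 223 myc_FLAG regions (84.8%, 79.5 to 88.9; all nuclear regions 75.7%) and 183 of 230 endog_myc regions (79.6%, 73.9 to 84.3; all nuclear regions 72.9%). Outside contigs and acrocentric arms the shares were 43.2% (41.0 to 45.4), 73.8% (71.0 to 76.3) and 71.6% (68.9 to 74.1). On contigs alone they were 76.8%, 87.1% and 83.6%. On short arms alone they were 62.1% (49.2 to 73.4), 76.9% (63.9 to 86.3) and 66.0% (52.6 to 77.3). The myc_FLAG and endog_myc short-arm intervals included the share of all nuclear regions. With contigs and arms together, the edit_myc_FLAG share was the farthest from its own background. Both other target lists held a partner for 56.9% in edit_myc_FLAG (all nuclear regions 30.9%), 59.6% in myc_FLAG (51.3%) and 58.3% in endog_myc (48.2%). Pair by pair, myc_FLAG held a partner for 66.5% of the edit_myc_FLAG regions (all nuclear regions 38.3%) and endog_myc for 63.7% (39.3%). For the myc_FLAG regions, edit_myc_FLAG held a partner for 69.96% (63.5%) and endog_myc for 74.4% (63.4%). For the endog_myc regions, edit_myc_FLAG held one for 65.7% (61.3%) and myc_FLAG for 72.2% (59.8%). Where edit_myc_FLAG and myc_FLAG regions overlapped, their summits lay a median of 15 bp apart on contigs and acrocentric arms and 27.0 bp elsewhere. For myc_FLAG and endog_myc these distances were 17 and 20 bp, and for edit_myc_FLAG and endog_myc 21 and 29 bp. Within 50 bp lay 70.3% of the edit_myc_FLAG and myc_FLAG pairs (62.9 to 76.7; elsewhere 59.5%, 55.7 to 63.2) and 68.7% of the myc_FLAG and endog_myc pairs (61.3 to 75.2; elsewhere 65.6%, 61.8 to 69.1). For edit_myc_FLAG and endog_myc it was 58.2% (50.4 to 65.6), with 59.7% elsewhere (56.0 to 63.3). In every pair the interval here overlapped the one elsewhere, so this share does not show closer summits here for any pair.

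Joined across lists wherever they overlapped, the 851 regions formed 354 loci, 256 on contigs and 98 on short arms. A region of every list was present at 52 loci. All 3 target lists and neither IgG list were present at 50. A single target list was present at 143, of which 65 were edit_myc_FLAG, 45 endog_myc and 33 myc_FLAG. Both myc_FLAG and endog_myc without the others were present at 28, edit_myc_FLAG and myc_FLAG at 22, and edit_myc_FLAG and endog_myc at 16. Only 3 loci had an IgG region and no target region. Contigs held most of the loci common to all lists: 48 of 256 contig loci were in all 5 lists (18.8%, 14.4 to 24), against 4 of 98 on short arms (4.08%, 1.6 to 10.03). A single target list and no IgG list was present at 94 of the contig loci (36.7%, 31.1 to 42.8) and 49 of the short-arm loci (interval 40.3% to 59.7%), and the intervals overlap.

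**Figure D3:**
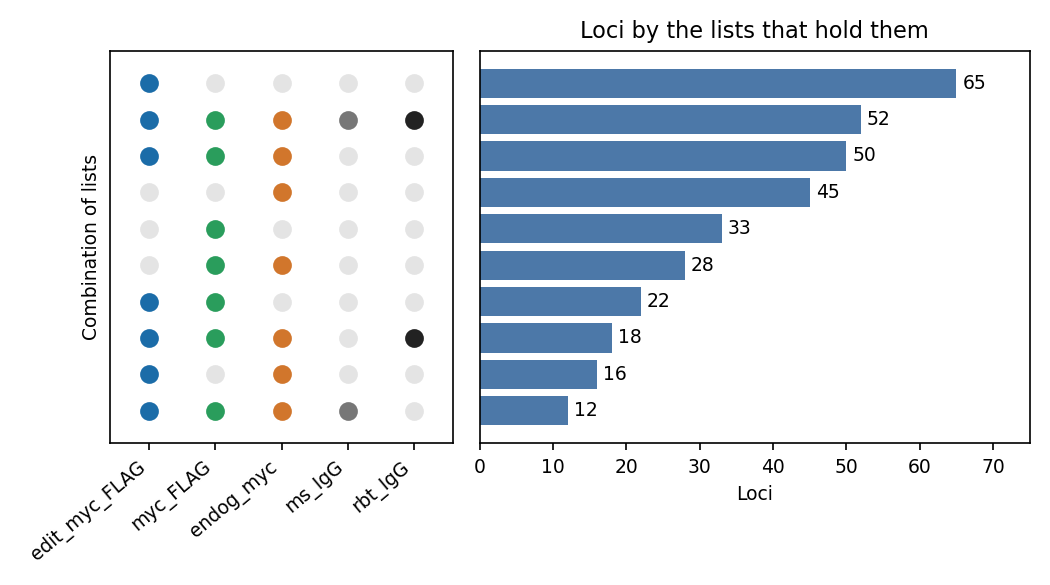
Number of loci (bars, right) for the 10 most frequent combinations of lists (filled dots, left). The combination of all 5 lists holds 52 loci, the 3 target lists without IgG 50, and edit_myc_FLAG alone 65.

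The loci named first were those with the highest fold ranks among 116 candidates: loci in all 5 lists, in all 3 target lists without IgG, among the 3 highest of a list, or beside a gene of the lists below. Of the 30 named, 23 were in all 5 lists and 28 were on contigs. Presence in all 5 lists made a locus a candidate, so the 23 partly restates that rule. A locus in 4 lists, chr21:7257902-7259352, was no candidate despite folds of 20.9, 16.9 and 17.4 in the target lists and 14.8 in mouse IgG. The highest named locus was chrUn_KI270442v1:92121-92793. Its fold was 37.3 in edit_myc_FLAG, 29.8 in myc_FLAG, 29.7 in endog_myc, 24.3 in mouse IgG and 26.0 in rabbit IgG. Its 5 summits lay within 9 bp. A second locus at the start of the same contig, chrUn_KI270442v1:10-267, had 26.3, 24.5, 21.5, 16.0 and 17.5 in that order. The 2 IgG lists were thus among the lists with a high fold at both places.

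On the short arm of chromosome 21 the highest locus was chr21:10692378-10693090, with folds of 27.9 in edit_myc_FLAG, 24.2 in myc_FLAG, 24.7 in endog_myc, 18.8 in mouse IgG and 20.6 in rabbit IgG. All 5 summits lay within 10 bp, and no annotated gene was within 1 kb. Other loci in all 5 lists lay on short contigs, such as chrUn_KI270337v1:20-1005 with 20.7, 18.1, 16.6, 14.6 and 13.4, chrUn_KI270304v1:767-1989 with 19, 15.2, 15.9, 12.2 and 12, and chrUn_KI270310v1:112-1044 with 16.8, 16.0, 16.9, 10.3 and 11.5. On the longer contig chr17_KI270729v1_random the locus at 27501 to 28008 had 19.2, 14.9, 14.7, 12.3 and 13.5. In chrUn_GL000216v2 the locus at 79914 to 80479 had 15.2, 13.5, 14.6, 13.8 and 12.7.

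The 7 other named loci had a region in each target list and in neither IgG list. At chrUn_KI270312v1:96-577 the edit_myc_FLAG fold was 10.1, the myc_FLAG fold 16.9 and the endog_myc fold 17.6. At chr21:10270205-10270531 they were 9.05, 10.5 and 13.6, with summits within 11 bp and no annotated gene within 1 kb. At chr17_KI270729v1_random:10951-11758 they were 11.7, 12.2 and 9.0, and at chrUn_KI270519v1:136497-137219, where the summits lay within 4 bp, 10.03, 11.4 and 9.21. The remaining ones were on chrUn_KI270538v1 (7.86, 7.84 and 8.17), chrUn_KI270412v1 (8.48, 7.24 and 8.26) and chrUn_KI270438v1 (8.23, 7.26 and 8.39). Absence from an IgG list says only that no region passed the caller's threshold in that single library.

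A few contigs held many of the regions. The unlocalised chromosome 14 contig GL000225 (chr14_GL000225v1_random) had 31 regions in edit_myc_FLAG, 32 in myc_FLAG, 31 in endog_myc, 8 in mouse IgG and 11 in rabbit IgG. The unplaced contig GL000216 (chrUn_GL000216v2) had 22, 21, 18, 7 and 8, and the unlocalised chromosome 17 contig KI270729 (chr17_KI270729v1_random) had 14, 12, 13, 7 and 9. Together these held 35.3% of the contig regions in edit_myc_FLAG, 38.0% in myc_FLAG, 35.0% in endog_myc, 36.7% in mouse IgG and 42.4% in rabbit IgG, a range that includes IgG. The 113 regions on GL000225 formed 42 loci spread over 138 kb. All 3 target lists were present at 21 of them, an IgG list at 13, and no locus was in IgG alone. The highest edit_myc_FLAG folds were at 25264 to 25995, with folds of 12.4, 10.9, 8.91, 9.61 and 7.59 in the order edit_myc_FLAG, myc_FLAG, endog_myc, mouse IgG and rabbit IgG, and at 85585 to 86017, with 12, 9.85, 8.98, 7.31 and 7.94. The highest endog_myc fold was elsewhere, at 6684 to 6973, with 9.94 there and 10.7 in myc_FLAG. Of all 42 loci 8 were in all 3 target lists and neither IgG list, such as the locus at 33355 to 33932 with 7.09, 7.62 and 8.44, and 11 were in a single list.

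**Figure D4:**
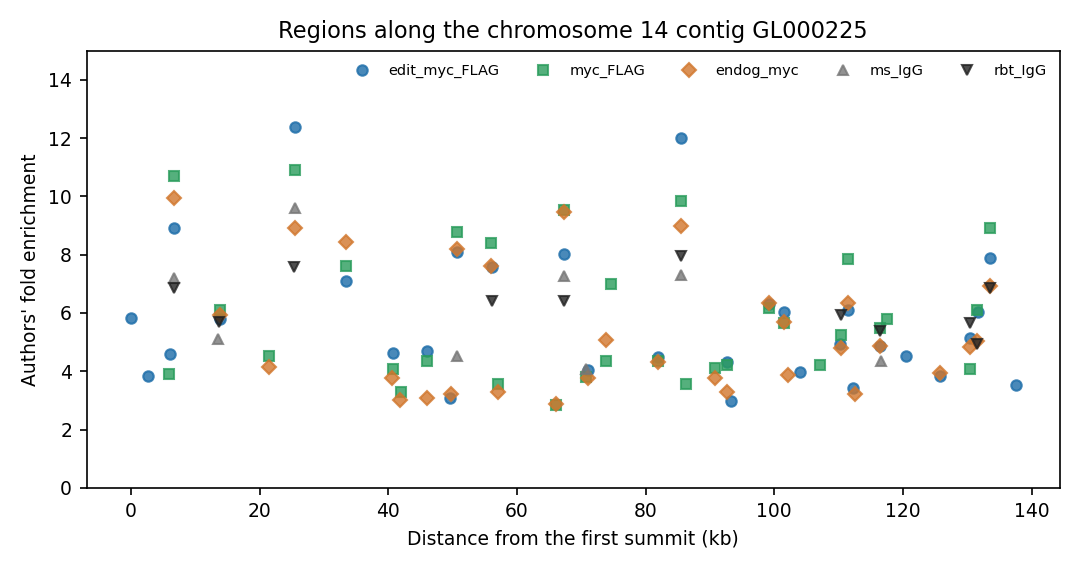
The authors' fold enrichment of each region on the chromosome 14 contig GL000225 against the distance of its summit from the first summit (kb), by list. The 113 regions cluster at 42 loci, and the loci at which IgG regions (triangles) lie include the highest, with an edit_myc_FLAG fold of 12.4.

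The short arms differed from each other. Chromosome 21 held 37 regions in edit_myc_FLAG, 22 in myc_FLAG, 25 in endog_myc and 5 in each IgG list, at 49 loci. Chromosome 22 held 9, 7, 4, 2 and 2 at 9 loci, and chromosome 15 held 4, 2, 1, 1 and 1 at 3 loci within a few kilobases. No list had a region on the short arm of chromosome 14. Around the limits of the rule, the last region inside on chromosome 13 ended at 17665921 (endog_myc, fold 5.35) and the first outside at 17704894 (endog_myc, 4.82), so that cluster of regions runs across the limit. On chromosome 21 the last inside ended at 10716735 (fold 5.07) and the first outside at 14027710 (5.71). On chromosome 22 they ended at 12694046 (8.28) and 15721913 (4.18), on chromosome 15 at 17083245 (6.60) and 20048475 (4.65), and the first on chromosome 14 ended at 19007842 (3.98).

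Chromosome 13 had fewer edit_myc_FLAG regions than the other target lists. There were 8 in edit_myc_FLAG (0.370% of its nuclear regions, 0.187 to 0.727), 21 in myc_FLAG (1.64%, 1.07 to 2.49), 23 in endog_myc (1.70%, 1.14 to 2.54), 5 in mouse IgG (1.68%, 0.719 to 3.87) and 3 in rabbit IgG (0.993%, 0.338 to 2.88). The edit_myc_FLAG interval lay below those of myc_FLAG and endog_myc and overlapped both IgG intervals. On chromosome 21 the 5 shares, in the same order, were 1.71%, 1.71%, 1.85%, 1.68% and 1.66%. Under both alternatives the separation of the intervals was lost. Among regions with a −log10 q of 5 or more the counts were 6, 13 and 17, and the edit_myc_FLAG interval (0.258% to 1.22%) overlapped those of myc_FLAG (0.869% to 2.52%) and endog_myc (1.16% to 2.96%). With lists of equal length the counts were 1, 5 and 7, with intervals of 0.0593% to 1.88%, 0.719% to 3.87% and 1.14% to 4.77%. Of 37 loci there, 28 had a myc_FLAG or endog_myc region and no edit_myc_FLAG region, but only 8 of these had both. All 37 loci lay between 16123173 and 17665921, and how many of them are centromere sequence was not tested. The arm was picked after its values were seen, and whether depth, copy number or read placement moves with it was not tested.

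Most chromosome 13 loci had a middling fold. Its regions ranged from 3.82 to 11.0, and the median was 6.14 for edit_myc_FLAG, 5.76 for myc_FLAG and 6.23 for endog_myc. The locus in all 5 lists, chr13:17170406-17170773, had folds of 6.13 in edit_myc_FLAG, 8.86 in myc_FLAG, 7.86 in endog_myc, 6.38 in mouse IgG and 5.92 in rabbit IgG. The highest folds on the arm were in single lists, with 11.0 at chr13:17311973-17312157 in myc_FLAG and 10.8 at chr13:16413059-16413365 in endog_myc. These 3 places were also chosen after their values were seen.

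Summits on the short arms lay inside an annotated gene less often than the list average in edit_myc_FLAG and myc_FLAG, while the other lists' intervals included theirs. The RefSeq table lists 199 genes there, 78 of them pseudogenes, 63 long non-coding RNAs and 26 protein-coding. The summit was inside a gene's span for 12 of 58 edit_myc_FLAG regions (20.7%, 12.3 to 32.8), where 45.1% of all regions of that list on assembled chromosomes had it there. For myc_FLAG it was 7 of 52 (13.5%, 6.68 to 25.3; all regions 29.7%) and for endog_myc 9 of 53 (17.0%, 9.20 to 29.2; all regions 27.1%). Mouse IgG had 1 of 13 (1.37% to 33.3%; all regions 18.9%) and rabbit IgG 2 of 11 (5.14% to 47.7%; all regions 23.7%). A summit of some list lay inside or within 1 kb of 24 of the 199 genes (12.1%, 8.24 to 17.3), against 3.42% of all genes on assembled chromosomes. Several of the 24 are nested or neighbouring genes of the same ribosomal units, so 1 region can count for several of them. The interval does not allow for that, so the excess over 3.42% is not a measured one. None of the 24 was protein-coding, where 7.33% of all protein-coding genes had such a summit, so 0 of 26 is no measured difference. Of the 48 promoter windows of 300 bases that RefSeq gives for these arms, none overlapped a region, which allows up to 6.25%. Over all windows the share was 3.17%. The table lists spans only, so exon, intron and UTR were not separated.

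In the ribosomal DNA units and the spacers after them, regions were found in each target list, and in rabbit IgG in a spacer only. Their fold was low. The assembly holds 5 full units, RNA45SN1 to RNA45SN5, and 3 partial ones. Those of chromosome 21 are on the assembled arm. RNA45SN4 was taken to lie on chr22_KI270733v1_random and RNA45SN5 on chrUn_GL000220v1 from general knowledge of the assembly, as the gene table does not name their contig. In the window from 5000 bp before to 40000 bp after the 18S start of a unit lay 30 of 248 edit_myc_FLAG regions (12.1%, 8.61 to 16.7), 14 of 223 myc_FLAG regions (6.28%, 3.78 to 10.3) and 17 of 230 endog_myc regions (7.39%, 4.67 to 11.5). Rabbit IgG had 2 of 77 (2.60%, 0.715 to 8.98) and mouse IgG 0 of 73, which allows up to 4.11%. The intervals of the 3 target lists overlapped each other, and the rabbit IgG interval overlapped all of them. These shares are of the regions on contigs and acrocentric arms only. The 30, 14 and 17 regions came from lists with 2165, 1283 and 1352 nuclear regions. The longest list thus had the most regions in the units, and shares over all nuclear regions were not computed. The edit_myc_FLAG folds ran from 2.13 to 4.18, those of myc_FLAG from 2.29 to 3.89 and those of endog_myc from 2.21 to 3.77. All were below the medians of 5.52, 5.76 and 5.47 given above. With a −log10 q of at least 5 they were 12, 9 and 9, which lowered the edit_myc_FLAG share to 6.15%. With lists of equal length none remained in a target list, while both rabbit IgG regions did. Equal length keeps the regions of highest fold, so regions of low fold drop out of the long target lists. The rabbit IgG list was hardly shortened. The outcome at equal length was thus largely set by the lengths of the lists, and nothing about the units follows from it.

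**Figure D5:**
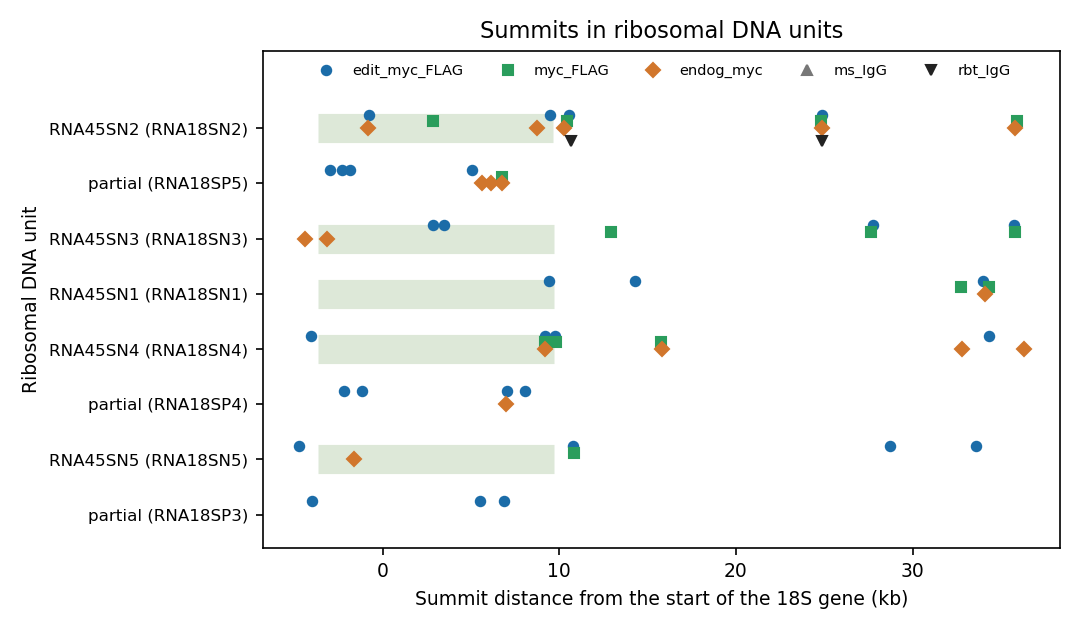
Distance of each summit from the start of the 18S gene (kb) in the 5 full and 3 partial ribosomal DNA units, by list, with the 45S span of full units shaded. The 63 summits are scattered over the shaded spans, the sequence before and after them, and the partial units. Both IgG summits are in the spacer of RNA45SN2.

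Regions lay in the precursor and in the spacer that separates units. In the full units, 6 edit_myc_FLAG summits were within a 45S span, 2 upstream of it and 11 in the spacer after it. The counts were 2, 0 and 11 in myc_FLAG and 5, 1 and 7 in endog_myc. The partial units held 11, 1 and 4 regions. A mature 18S, 5.8S or 28S gene held 1, 1 and 2 summits. The place with the highest −log10 q was in the 28S gene of RNA45SN4, at positions 135117 to 135121 of its contig, 12844 to 12848 bp from the 45S start. The summits of all 3 target lists fell there and no IgG region was called. The edit_myc_FLAG region had a fold of 4.18 and a −log10 q of 24.2, the myc_FLAG region 3.89 and 16.4, and the endog_myc region 3.77 and 19. Just beyond the 45S end of that unit, edit_myc_FLAG had a further summit with a fold of 4.0 and myc_FLAG one with 3.87.

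In the spacer of RNA45SN2 the summits of 4 lists lay between 8234476 and 8234523 on chromosome 21, with folds of 3.43 in edit_myc_FLAG, 3.71 in myc_FLAG, 3.24 in endog_myc and 4.02 in rabbit IgG. Within 1000 bp of a 45S start, where the promoter of the unit lies, 3 summits were found. An endog_myc summit lay 496 bp inside RNA45SN3 (fold 2.97) and another 766 bp before it (3.26), and an edit_myc_FLAG summit lay 397 bp before RNA45SN4 (2.45). The places named in the units were chosen after their values were seen.

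The same position in different units was seldom called. Of the 61 target-list regions in the units, 8 had a region of their own list within 200 bp of the same distance from 18S in another unit. They formed, with the IgG regions, 43 loci. All 3 target lists were present at 4 of these, exactly 2 at 8, and 1 list alone at 31, of which 20 were edit_myc_FLAG. Since the units are near-identical, reads from 1 unit can be placed on another, and these positions describe the assembly's copies and not separate units of the cell.

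The genes of the units were also counted one by one. Of 20 ribosomal RNA genes in the units, 11 had an edit_myc_FLAG summit within 1000 bp of their span, 5 a myc_FLAG one, 7 an endog_myc one and 0 an IgG one. Over all genes on assembled chromosomes such a summit was found for 2.76% in edit_myc_FLAG, 1.09% in myc_FLAG, 1.17% in endog_myc, 0.0989% in mouse IgG and 0.127% in rabbit IgG, so a count of 0 among 20 genes is no measured difference for IgG. The spans nest, so 1 region can count for several genes. Of 10 small RNAs named for the units, 8 were in the gene table, and 3, 2 and 4 of them had a summit in edit_myc_FLAG, myc_FLAG and endog_myc, and 2 in each IgG list. Of 27 genes of acrocentric pericentromeres, 24 were in the table and 2 inside the windows used here. BAGE2, of a family of tumour antigen genes and annotated as a transcribed pseudogene, had an edit_myc_FLAG region (fold 4.37) and none in another list.

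The short run of precursor sequence shown above gave a higher fold than the units themselves. MIR3648-2 and MIR10396A lie 618 bp apart near 8.99 Mb of chromosome 21, where the table has no ribosomal RNA gene. In the units, MIR3648-1 starts 1158 bp before the 18S gene of RNA45SN2 and MIR10396B 552 bp before that of RNA45SN1, a difference of 606 bp, so the order and nearly the distance are those of the precursor's leading spacer. A locus over MIR3648-2, chr21:8986806-8987455, was in all 5 lists, with folds of 8.56 in edit_myc_FLAG, 7.96 in myc_FLAG, 7.45 in endog_myc, 7.40 in mouse IgG and 7.15 in rabbit IgG. Every list thus had a region there, IgG included. A neighbouring locus beyond MIR10396A, chr21:8987878-8988439, had 7.34, 4.29 and 5.10 in the target lists and 5.52 in rabbit IgG. At MIR3648-1 inside RNA45SN2 the fold was 3.04 in edit_myc_FLAG and 2.93 in endog_myc, and the other lists had no region. Folds of different places are each relative to their own background, so the gap is not a measure of binding.

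Outside the ribosomal units, the annotated places were mostly non-coding. DUX4L44, a pseudogene of the DUX4 family on chromosome 22 (12692641 to 12694102), had a locus inside its span and another within 1 kb outside it. The inner locus, chr22:12693387-12694046, had a fold of 8.28 in edit_myc_FLAG, 7.58 in myc_FLAG, 7.2 in endog_myc and 7.49 in rabbit IgG and no mouse IgG region. The outer locus, chr22:12691991-12692500, was in every list, with 6.73, 7.14 and 8.99 in the target lists, 5.46 in mouse IgG and 5.34 in rabbit IgG. LINC01667, a long non-coding RNA on chromosome 21, had a region beside its end in edit_myc_FLAG (6.39) and myc_FLAG (10.7) and in no other list. LOC102724701, a long non-coding RNA with a span from 6228966 to 6670731, had a region inside it in edit_myc_FLAG (7.08), myc_FLAG (6.05) and endog_myc (4.18) and in neither IgG list. These 3 genes were named after their values were seen.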

How the data were processed

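Binding was profiled by CUT&RUN in HEK293T cells, and 5 peak lists were used. The tools named are MACS3 3.0.0b1, Bowtie2 2.4.5, HOMER 4.10 and SAMtools 1.15 with hg38, per the submitters' processing notes. Roles, options, control library and the handling of reads with several matches were not given in the sources used here. For each peak the authors deposited positions, a score, a fold enrichment (a ratio) and the −log10 of p and q. The score was the −log10 q times 10 as a whole number and was not used, nor was the −log10 p. The 3 target lists each stand for 3 libraries; how these were merged is not given.

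Regions were chosen and compared with Python 3.11.15, pandas 2.3.3 and SciPy 1.17.1, and overlap meant at least 1 bp. Shares carry 95% Wilson intervals, and a count of 0 allows up to 3 counts. The interval of a median came from the binomial order statistics. The overlap steps were tested on simulated regions. Positions are counted from 1. Gene spans came from RefSeq GRCh38.p14. Loci were named by fold rank within a list, up to 30. Depth per sample is unknown. The members and lists were chosen with earlier results of these data known. Genome sequence was not used here. The alternatives were stricter q, other overlap rules, contigs or arms alone, equal list length and joining of near regions.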

Additional observations from a re-analysis of the deposited data

How the results depend on the processing

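Of 93 planned recalculations of 18 results, 38 stayed within the 95% interval of the reported value and 55 did not. With a −log10 q of at least 5, the shares on contigs and acrocentric arms were 18.3% in edit_myc_FLAG, 20.3% in myc_FLAG and 19.6% in endog_myc, their median folds 6.31, 6.51 and 6.36, and all rabbit IgG regions recurred (100%). With contigs alone the shares were 8.78%, 13.3% and 13.1%, and mouse IgG recurrence was 100%. With short arms alone the shares were 2.68%, 4.05%, 3.92%, 4.36% and 3.64% in the order edit_myc_FLAG, myc_FLAG, endog_myc, mouse IgG and rabbit IgG. Overlap with IgG was then 24.1%, 30.8% and 28.3% (all nuclear regions 15.9%, 27.5% and 26.1%). Overlap with another target list was 62.1%, 76.9% and 66.0% (all nuclear regions 46.7%, 75.7% and 72.9%). IgG recurrence was 84.6% and 100%, and the rabbit IgG median fold 5.66. With 298 regions per list the target shares were 23.5%, 23.2% and 23.5%, overlap with IgG 75.7%, 76.8% and 77.1%, overlap with another target list 82.9% in edit_myc_FLAG and 87.1% in endog_myc, IgG recurrence 75.3% and 70.1%, and median folds 10.2, 10.5 and 10.2; this setting picks regions by their fold. Requiring 50% of both regions gave 27.4%, 30.04% and 30.4% with IgG, 63.3%, 76.2% and 71.7% with another target list, and IgG recurrence of 79.5% and 87.0%. Summits within 100 bp gave 26.6%, 30.5% and 30.9%, then 60.1%, 74.0% and 63.5%, then 76.7% and 87.0%. No overlap share over all nuclear regions was computed at the stricter q, at equal length or under these overlap rules. Whether the excess over all nuclear regions holds there was therefore not tested. Counting regions within 1000 bp once gave 9.64% in edit_myc_FLAG. For the results that moved, beyond the fewer regions or stricter overlap each setting uses, the cause was not tested. For chromosome 13 and the ribosomal units, 2 settings were added after seeing the data; the changes were an edit_myc_FLAG share in the units of 6.15% at the stricter q, 0% of each target list in the units at equal length, and 0 of 219 rabbit IgG regions on chromosome 13 at the stricter q.

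No paired analysis was possible because each group has 1 merged list and no values per library; likewise no library was left out. Peak lists hold no depth, so a region missing from a list is not a measured absence.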

Other observations

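The 5S ribosomal RNA genes, which stand apart from the 45S units in an array on chromosome 1, had regions of a similar fold. Of 17 genes, 4 had a summit within 1000 bp in edit_myc_FLAG, 3 in myc_FLAG, 4 in endog_myc and 0 in either IgG list. Over all genes the shares were 2.76%, 1.09% and 1.17% in the target lists and 0.0989% and 0.127% in mouse and rabbit IgG, so the 0 of the shorter IgG lists is no measured difference. Neighbouring 5S genes are near-identical copies, and the copy a region came from is uncertain. At RNA5S17 the nearest regions had folds of 3.39, 2.95 and 3.26 in the order edit_myc_FLAG, myc_FLAG and endog_myc, and at RNA5S1 3.26, 2.57 and 2.49.

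In every list but mouse IgG, regions on contigs and acrocentric arms stood closer together than elsewhere. The median distance between neighbouring summits of the same list was 5343 bp in edit_myc_FLAG, against 337200 bp elsewhere in the nuclear genome. It was 6036 against 98725 bp in myc_FLAG and 7107 against 117099 bp in endog_myc. In mouse IgG it was 21586 bp against 19519 bp elsewhere, and in rabbit IgG 8892 against 31691 bp. The distances depend on the length of the sequences and of the lists. They were taken within a sequence, so a short contig cannot hold the long gaps of a whole chromosome. The contrast is therefore partly set in advance.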
